A study of Mus musculus with 4 samples.

Results

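Neutrophil genes were examined in colon tumours of 4 mice with CAGE, or cap analysis of gene expression, an assay that reads short tags at capped RNA 5′ ends and counts them gene by gene. The set held 10 of the 14979 genes in the count table. They were Camp, Ngp and Ltf, which encode proteins of the specific granules, and Csf3r, Retnlg and Padi4, which are expressed in mature neutrophils. The others were Trem1, Acod1, Clec4d and Clec4e, which are carried or induced on activation. The genes were taken by symbol from a list chosen by their levels in these same 4 libraries, MAdCAM1 against IgG, so their differences between the antibody groups are given as a description, without a test. All mice carried tumours of the AOM/DSS model, in which azoxymethane, a carcinogen, is combined with dextran sulfate sodium, which inflames the colon. The MAdCAM1 group (libraries MAdCAM1 1 and MAdCAM1 2) had received an antibody against MAdCAM-1, an adhesion molecule of gut venules, and the IgG group (libraries IgG 1 and IgG 2) a control IgG antibody, with 1 library from each of 2 mice per group. Strain, age, sex, antibody dose and day of sampling are not given in the sources used here. The series title places the comparison in the question of whether blocking MAdCAM-1 limits immune cell infiltration and inflammatory signals in colitic cancer.

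Neutrophils are short-lived phagocytes that are made in the bone marrow, circulate in blood and enter inflamed tissue. Their granule proteins are made in sequence while the cells mature. Primary granule proteases come first, the specific granule proteins cathelicidin, neutrophilic granule protein and lactoferrin follow at the myelocyte stage, and receptors and inflammatory genes are transcribed in the mature cell. Transcripts of specific granule proteins therefore mark immature stages more than mature ones. C/EBPε, a transcription factor of the C/EBP family, is required for specific granules in mice.

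Because Camp and Ngp were the members furthest below their IgG levels, the promoters of the specific granule genes are shown with that of Retnlg, a mature neutrophil gene that was also lower. Each window runs from 250 bases before to 50 bases after the start of the canonical GENCODE M39 transcript on GRCm39, 5′ to 3′ on the gene's strand, and capitals mark a match to the C/EBP motif letters TTGCNNAA on either strand.
Camp (chr9:109678636-109678935, minus strand): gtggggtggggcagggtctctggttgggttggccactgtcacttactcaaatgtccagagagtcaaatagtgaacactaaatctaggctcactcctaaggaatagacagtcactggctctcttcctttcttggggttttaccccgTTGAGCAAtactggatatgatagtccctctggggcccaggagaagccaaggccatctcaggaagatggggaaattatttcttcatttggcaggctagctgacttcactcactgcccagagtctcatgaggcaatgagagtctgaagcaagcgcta
Ngp (chr9:110248565-110248864, plus strand): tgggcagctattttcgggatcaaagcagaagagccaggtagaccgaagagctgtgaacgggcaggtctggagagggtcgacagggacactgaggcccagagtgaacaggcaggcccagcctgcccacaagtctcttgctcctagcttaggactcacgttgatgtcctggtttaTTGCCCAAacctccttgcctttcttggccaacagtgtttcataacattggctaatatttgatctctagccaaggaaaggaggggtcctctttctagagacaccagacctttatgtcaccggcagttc
Ltf (chr9:110848089-110848388, plus strand): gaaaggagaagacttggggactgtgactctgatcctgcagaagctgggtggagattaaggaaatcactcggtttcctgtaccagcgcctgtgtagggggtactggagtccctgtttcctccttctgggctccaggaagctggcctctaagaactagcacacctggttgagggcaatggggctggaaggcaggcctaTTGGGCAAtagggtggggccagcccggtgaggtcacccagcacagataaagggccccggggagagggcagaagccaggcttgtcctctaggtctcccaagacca
Retnlg (chr16:48692727-48693026, plus strand): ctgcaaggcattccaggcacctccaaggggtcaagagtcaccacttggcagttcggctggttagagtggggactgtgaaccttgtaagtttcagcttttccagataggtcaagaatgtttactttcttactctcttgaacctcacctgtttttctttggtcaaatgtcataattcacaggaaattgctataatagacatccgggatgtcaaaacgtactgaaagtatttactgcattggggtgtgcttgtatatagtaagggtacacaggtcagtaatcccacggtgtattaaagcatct
One C/EBP match stood at each specific granule promoter. Its first base lay 105 bases before the start at Camp (TTGAGCAA), 77 before at Ngp (TTGCCCAA) and 54 before at Ltf (TTGGGCAA). Retnlg, Csf3r, Trem1, Acod1 and Clec4d had no such letters in their windows, whereas Padi4 (161 bases before) and Clec4e (67 bases before) had 1 match each. The letters occurred in 5 of the 10 member windows and in 9.27% of 14921 windows of the same length over the genes of the table. GAGGAAG, a form of the PU.1 motif, was found at Trem1 alone among the members and in 13.6% of all windows. The TATA box letters TATAAA were found at Clec4e, 30 bases before the start, and at Acod1, 7 bases after it, and in 9.83% of all windows. A match of letters is a description of the sequence and does not show that a factor bound there.

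Camp, Ngp and Ltf lie along chromosome 9 without being neighbours. Camp (109676442 to 109678685) and Ngp (110248815 to 110252086) are 570129 bases apart with 10 genes of the table between them, and Ltf (110848339 to 110871835) lies 596252 bases beyond Ngp, again with 10 genes between. Clec4d (chromosome 6, 123239070 to 123252230) and Clec4e (123258748 to 123266829) are direct neighbours in the table, 6517 bases apart on opposite strands. No member overlaps another gene of the table, so that tags of an overlapping listed gene do not enter their counts. Csf3r, Padi4, Trem1, Acod1 and Clec4d overlap annotated genes of the opposite strand that are not in the table.

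The libraries held 14850923 and 15895228 tags in the MAdCAM1 group and 16891234 and 15727936 in the IgG group. Levels are in CPM, the tags of a gene relative to the TMM-scaled library total, in which 1 tag is worth 0.0569 to 0.0700 CPM. A CAGE tag marks 1 RNA 5′ end, so these levels do not depend on gene length. Counting intervals are exact 95% Poisson intervals and cover counting error only. Of 8 neutrophil markers, 7 were in the table. S100a8, S100a9, Ly6g, Retnlg, Csf3r and Mmp9 were tested, and Fpr1 was not analysed here. The chemokine receptor gene Cxcr2 was too low to be tested. It had 0 and 1 tags in the MAdCAM1 libraries and 4 and 7 tags in the IgG libraries. The primary granule genes Mpo, Elane, Prtn3 and Ctsg were likewise not analysed here. The tested markers shared no pattern, with Retnlg lower and Ly6g higher without overlap and 4 overlapping. Ly6g, the gene of the antigen used to sort mouse neutrophils, stood at 126 and 188 CPM in the MAdCAM1 libraries and 55.9 and 36.0 CPM in the IgG libraries. Of 8 epithelial markers 7 were also higher without overlap and 1 overlapped, where 19.7% of all tested genes were higher. Which cells gave the Ly6g tags was not tested. The number of neutrophils, their maturity and their RNA per cell cannot be told apart in such bulk libraries.

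The specific granule genes Camp and Ngp had 1 to 19 tags per library in tumours of mice given the MAdCAM-1 antibody and 30 to 118 tags in those given IgG. The mature and activation genes mostly overlapped between the groups. For Camp, Ngp and Retnlg, 3 of the 10 members, each MAdCAM1 library lay below each IgG library, and 0 members showed the opposite. Over all 14331 tested genes, 18.7% were lower without overlap and 19.7% higher without overlap. All 10 members had a log2 fold change (MAdCAM1 over IgG) below 0, with a median of −0.38, against a median of 0.00 over all tested genes. A log2 fold change of −2 or lower was reached by Camp and Ngp, and by 0.258% of all tested genes. These counts repeat the values by which the genes were proposed and carry no test.

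**Figure D1:**
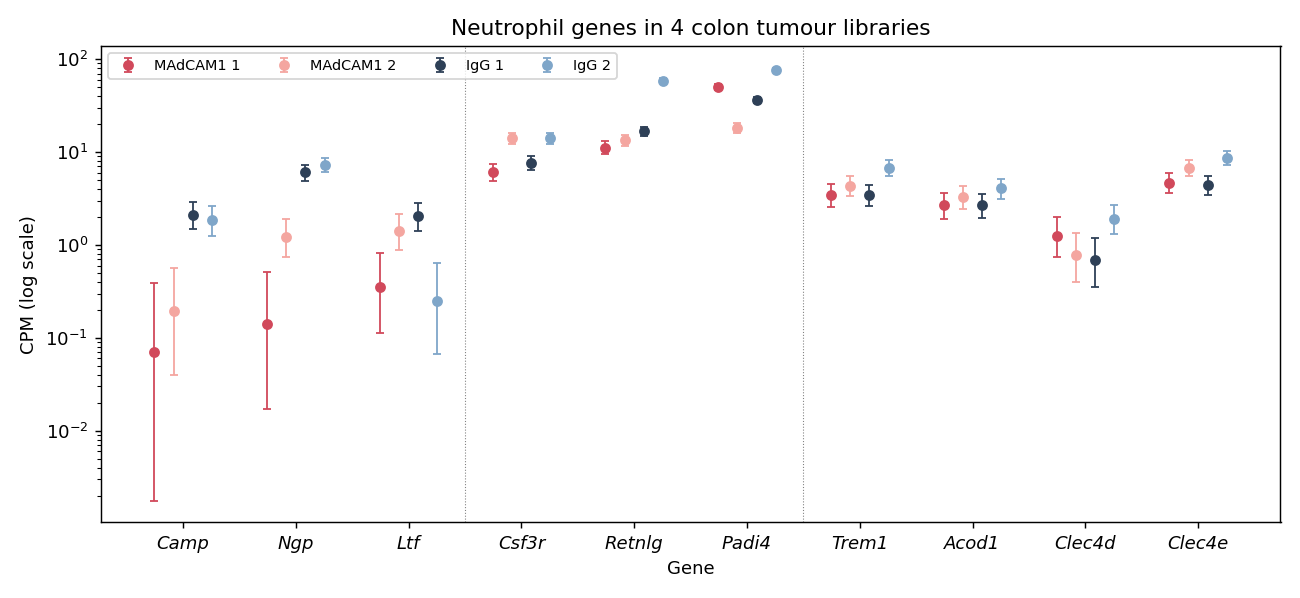
Level of each of the 10 neutrophil genes (CPM, log axis) in the 4 libraries, with exact 95% Poisson counting intervals as bars. Camp and Ngp sit at 0.0700 to 1.23 CPM in the MAdCAM1 libraries and at 1.86 to 7.30 CPM in the IgG libraries, while Csf3r and the 4 activation genes on the right overlap between the groups.

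Camp encodes cathelicidin, an antimicrobial peptide stored in specific granules and in mice also made by epithelia. It had 1 tag in MAdCAM1 1 and 3 tags in MAdCAM1 2, against 37 tags in IgG 1 and 30 tags in IgG 2. On the CPM scale these were 0.0700 and 0.194 in the MAdCAM1 libraries and 2.11 and 1.86 in the IgG libraries. Both IgG libraries were far above both MAdCAM1 libraries. The counting intervals, which leave out differences between mice, were 0.0253 to 5.57 tags in MAdCAM1 1 and 0.619 to 8.77 tags in MAdCAM1 2. In IgG 1 and IgG 2 they were 26.1 to 51.0 and 20.2 to 42.8 tags. The summed tags of 4 in the MAdCAM1 group and 67 in the IgG group gave a level 14.8 times higher in IgG, with a counting interval of 5.5 to 55.7. The fitted log2 fold change was −3.81 (SE 0.65, n = 2 per group), and −4.68 without MAdCAM1 2. Camp entered the fit through the IgG libraries alone, since neither MAdCAM1 library reached the minimum of 0.632 CPM.

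Ngp encodes neutrophilic granule protein, a relative of the cathelicidins in the specific granules of mouse neutrophils. It had 2 and 19 tags in MAdCAM1 1 and MAdCAM1 2, against 106 and 118 tags in IgG 1 and IgG 2. Its level was 0.140 and 1.23 CPM in the MAdCAM1 libraries and 6.03 and 7.30 CPM in the IgG libraries. The IgG libraries were close to each other, whereas the MAdCAM1 libraries differed, with counting intervals of 0.242 to 7.22 tags in MAdCAM1 1 and 11.4 to 29.7 tags in MAdCAM1 2. The fitted log2 fold change was −3.25 (SE 0.96), and the summed tags gave a level 9.40 times higher in IgG with a counting interval of 6.0 to 15.5. The log2 fold change was −5.50 without MAdCAM1 2 and −2.43 without MAdCAM1 1.

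Ltf encodes lactoferrin, an iron-binding protein of specific granules that glandular epithelia also secrete. It did not share the pattern of Camp and Ngp. Ltf had 5 and 22 tags in the MAdCAM1 libraries and 36 and 4 tags in the IgG libraries, or 0.350 and 1.42 CPM against 2.05 and 0.247 CPM. IgG 1 was highest and IgG 2 lowest, so the groups overlapped fully. The log2 fold change of −0.37 (SE 1.21) became 1.81 without IgG 1, 0.30 without MAdCAM1 1 and −1.70 without MAdCAM1 2.

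Csf3r encodes the receptor for G-CSF, the growth factor that drives neutrophil production and release. Its level was 6.09 and 14.0 CPM in the MAdCAM1 libraries and 7.62 and 14.1 CPM in the IgG libraries. MAdCAM1 2 and IgG 2 were alike and high, and MAdCAM1 1 and IgG 1 were low, so that the treatments did not part (log2 fold change −0.11, SE 0.55). It was 0.40 without IgG 2, 0.37 without MAdCAM1 1 and −0.83 without MAdCAM1 2.

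Retnlg encodes a resistin-like secreted protein that is abundant in mature mouse neutrophils. It stood at 11.1 and 13.4 CPM in the MAdCAM1 libraries, against 16.7 and 58.6 CPM in the IgG libraries. The groups did not overlap, but IgG 2 alone held 58.7% of the summed level and IgG 1 lay close to the MAdCAM1 libraries. The log2 fold change was −1.62 (SE 0.65), and −0.45 without IgG 2. Haemoglobin genes, which mark blood in the tissue, were also highest in IgG 2, with the blood cell list summing to 55.1 and 84.1 CPM in the MAdCAM1 libraries and 30.2 and 289 CPM in the IgG libraries. The list had 4 of its 8 genes in the table, 3 of them tested and all 3 overlapping between the groups. Its part in the Retnlg level was not tested.

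Padi4 encodes the enzyme that converts histone arginines to citrulline when neutrophils release extracellular traps. It was the member with the highest mean level, at 49.6 and 18.3 CPM in the MAdCAM1 libraries and 36.1 and 76.8 CPM in the IgG libraries. MAdCAM1 2 was lowest and IgG 2 highest, with MAdCAM1 1 above IgG 1 (log2 fold change −0.73, SE 0.63). The value was −0.10 without IgG 2 and −1.63 without MAdCAM1 1. Padi4 tags per 100 Csf3r tags numbered 815 and 130 in the MAdCAM1 libraries and 474 and 545 in the IgG libraries, so that Padi4 did not track Csf3r. Its relative Padi2 stood at 1.89 and 2.52 CPM in the MAdCAM1 libraries and 1.25 and 1.67 CPM in the IgG libraries (log2 fold change 0.60, edgeR quasi-likelihood adjusted p = 0.835), and Padi1, Padi3 and Padi6 were not analysed here.

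The activation genes were low and overlapped between the groups. Trem1, a receptor that amplifies inflammatory signals in neutrophils and monocytes, stood at 3.43 and 4.34 CPM in the MAdCAM1 libraries and 3.41 and 6.80 CPM in the IgG libraries. Acod1, the enzyme that makes itaconate in activated myeloid cells, stood at 2.66 and 3.30 CPM in the MAdCAM1 libraries and 2.67 and 4.08 CPM in the IgG libraries. For both genes IgG 2 was highest and the other libraries lay close together. Clec4d and Clec4e encode the C-type lectin receptors MCL and Mincle, which recognise mycobacterial glycolipid. Clec4e stood at 4.69 and 6.80 CPM in the MAdCAM1 libraries and 4.38 and 8.66 CPM in the IgG libraries. Clec4d had 18 and 12 tags in the MAdCAM1 libraries and 12 and 31 tags in the IgG libraries. Their log2 fold changes lay between −0.39 for Trem1 (SE 0.47) and −0.18 for Acod1 and Clec4e (SE 0.41 and 0.47). Without IgG 2 all 4 turned positive, at 0.18 for Trem1, 0.15 for Acod1, 0.56 for Clec4d and 0.39 for Clec4e, and without MAdCAM1 1 Clec4e was 0.06. All 7 mature and activation members were highest in IgG 2, as were 8 of the 10 members and 29.3% of all tested genes, while 5 of the 10 were lowest in MAdCAM1 1, as were 21.8% of all tested genes.

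**Figure D2:**
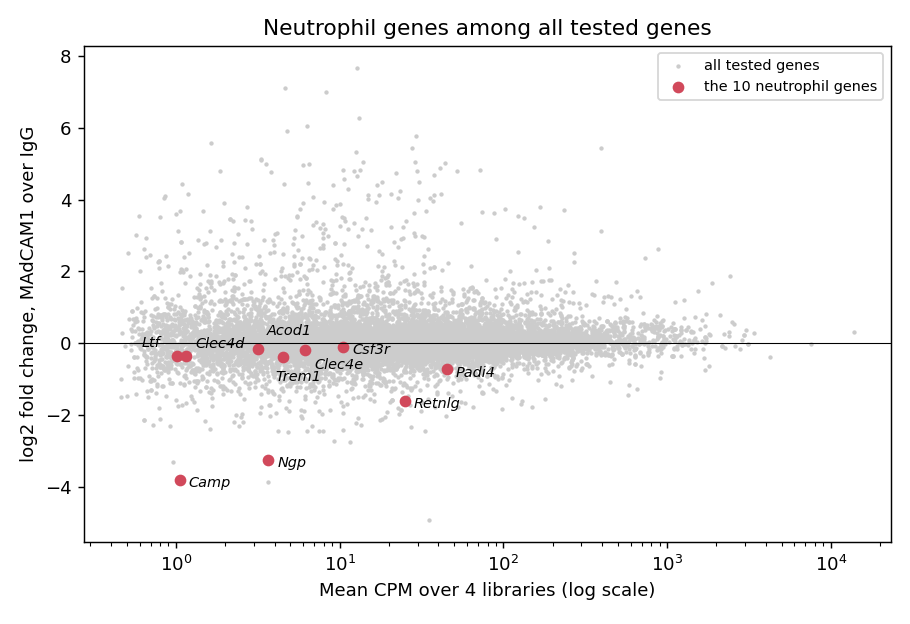
Log2 fold change (MAdCAM1 over IgG) against mean CPM (log axis) for the 14331 tested genes in grey and the 10 neutrophil genes in red. Camp at −3.81 and Ngp at −3.25 lie at the lower edge of all genes, Retnlg at −1.62 lies above them, and the others lie between −0.73 and −0.11.

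Setting Camp and Ngp against the mature genes within each library removes library scaling. Their tags made up 3 of 958 tags of Camp, Ngp, Csf3r, Retnlg and Padi4 in MAdCAM1 1 and 22 of 728 in MAdCAM1 2, against 143 of 1206 in IgG 1 and 148 of 2566 in IgG 2. As shares these were 0.313% (exact 95% Clopper-Pearson interval 0.0646 to 0.912) and 3.02% (1.90 to 4.54) in the MAdCAM1 libraries. In the IgG libraries they were 11.9% (10.1 to 13.8) and 5.77% (4.90 to 6.74). These intervals cover counting error only and leave out differences between mice. MAdCAM1 2 lay nearer to IgG 2 than to MAdCAM1 1 in log2 ratio. The log2 ratio of granule to mature tags averaged −6.53 ± 2.21 in the MAdCAM1 libraries and −3.46 ± 0.80 in the IgG libraries (SD, n = 2 each). Its difference of −3.08 (MAdCAM1 minus IgG) became −1.52 without MAdCAM1 1 and −4.64 without MAdCAM1 2. Much of the mature sum was Padi4, with 709 of 955 tags in MAdCAM1 1 and 282 of 706 in MAdCAM1 2. In IgG 1 it gave 635 of 1063 tags and in IgG 2 1242 of 2418. Padi4 did not track Csf3r, and which cells gave its tags was not tested. The ratio and the shares therefore compare tags of the named genes and do not measure neutrophil maturity.

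The choice of mature gene altered the size of the difference. Ngp tags per 100 Csf3r tags numbered 2.30 and 8.76 in the MAdCAM1 libraries and 79.1 and 51.8 in the IgG libraries. Against Retnlg they numbered 1.26 and 9.18 in the MAdCAM1 libraries and 36.1 and 12.4 in the IgG libraries, where MAdCAM1 2 and IgG 2 lay close. Against Ptprc, the gene of the leukocyte antigen CD45, Ngp had 0.957 and 1.89 tags per 100 in the MAdCAM1 libraries and 29.1 and 24.6 in the IgG libraries. Camp tags per 100 Csf3r tags numbered 1.15 and 1.38 in the MAdCAM1 libraries and 27.6 and 13.2 in the IgG libraries. The difference of mean log2 ratios was −3.69 against Csf3r alone, −2.50 against Retnlg alone, −3.05 against Padi4 alone and −4.17 against Ptprc.

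**Figure D3:**
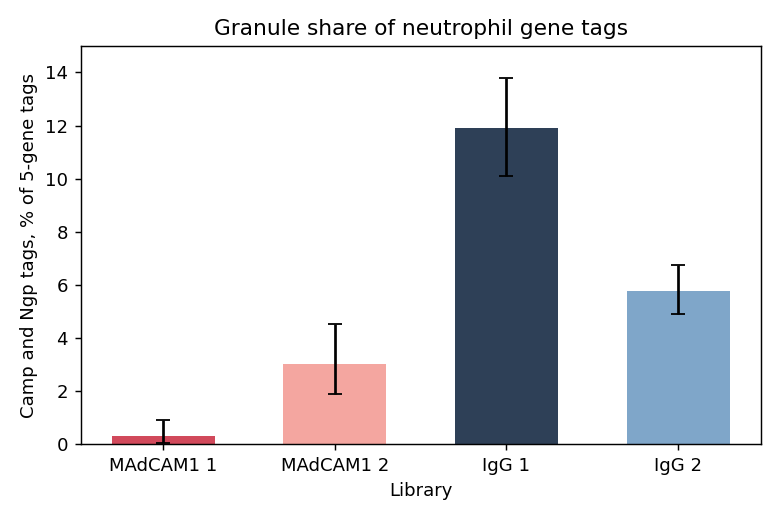
Camp and Ngp tags as a percentage of the tags of Camp, Ngp, Csf3r, Retnlg and Padi4 in each library, with exact 95% Clopper-Pearson intervals as bars. The share was 0.313% and 3.02% in the MAdCAM1 libraries and 11.9% and 5.77% in the IgG libraries.

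Across all genes, edgeR's quasi-likelihood test with Benjamini-Hochberg adjustment called 0 of 14331 in either direction (0% each), the lowest adjusted p being 0.484. Without adjustment, 730 higher genes (5.09%) and 261 lower genes (1.82%) had p under 0.05. By edgeR's exact test 152 higher genes (1.06%) and 9 lower genes (0.0628%) passed, by DESeq2 221 (1.54%) and 21 (0.147%), and by limma-voom 0. Among the further neutrophil and myeloid genes described next the quasi-likelihood test therefore called none, and their values are given as levels. Counts of genes without overlap in each list are to be read beside 18.7% lower and 19.7% higher over all tested genes.

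Other granule genes did not repeat the pattern of Camp and Ngp as a list. Of 16 further secondary and tertiary granule genes 13 were tested, 1 was lower without overlap and 2 were higher without overlap, with a median log2 fold change of −0.02. Mmp8, the collagenase of specific granules, was the lower one, at 0.770 and 2.14 CPM in the MAdCAM1 libraries and 2.73 and 9.34 CPM in the IgG libraries (log2 fold change −2.04, SE 0.87, edgeR quasi-likelihood adjusted p = 0.742). Cd177, a neutrophil surface protein, stood at 223 and 251 CPM in the MAdCAM1 libraries and 158 and 83.4 CPM in the IgG libraries. The protease inhibitor Slpi, which epithelia also secrete, stood at 150 and 357 CPM in the MAdCAM1 libraries and 84.5 and 39.7 CPM in the IgG libraries, and was called by DESeq2 (adjusted p = 0.0183) but not by edgeR's quasi-likelihood test (adjusted p = 0.691). The most abundant genes of the list, Pglyrp1, Anxa1, Lcn2 and Lyz2, overlapped between the groups, at levels far above those of Camp and Ngp. Lyz2 is also a macrophage and monocyte marker. The cells that gave the tags of these genes and of Cd177 were not identified. The median of the list therefore need not describe neutrophil transcripts. Among its genes of lower level, Mmp9 (log2 fold change −1.45, SE 1.19) and Wfdc21 (−1.31, SE 0.87) overlapped as well. So did Itgam (0.25, SE 0.58) and Chil3 (−0.12, SE 0.76). Mmp8, Cd177 and Slpi were the non-overlapping genes. Mmp8 and Slpi were chosen after their values were seen, whereas Cd177 was named by its mean level. Of 10 genes listed with the primary granules, only Serpinb1a and Gstm1 were in the table. Serpinb1a was higher without overlap (log2 fold change 0.96) and Gstm1 overlapped (−0.54). Neither is taken as a measure of primary granule proteins.

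Mature neutrophil genes outside the 10 mostly overlapped. Of 24 listed, 17 were tested, 0 were lower without overlap and 2, Mxd1 and Ly6g, were higher, with a median log2 fold change of 0.34. Cxcr2, with 0 and 1 tags in the MAdCAM1 libraries and 4 and 7 in the IgG libraries, is not among the 17. Ly6g (log2 fold change 1.77, SE 0.33, edgeR quasi-likelihood adjusted p = 0.665) passed edgeR's exact test at an adjusted p of 0.00237 and DESeq2 at an adjusted p of 0.00034. The cells behind the Ly6g tags were not identified. The alarmin S100a8 stood at 104 and 212 CPM in the MAdCAM1 libraries and 78.8 and 244 CPM in the IgG libraries. Its partner S100a9 stood at 85.6 and 509 CPM in the MAdCAM1 libraries and 198 and 253 CPM in the IgG libraries. C5ar1, the receptor for complement C5a, stood at 5.32 and 13.1 CPM in the MAdCAM1 libraries and 4.89 and 13.1 CPM in the IgG libraries, with MAdCAM1 2 and IgG 2 high. None of the NADPH oxidase genes was lower without overlap among 6 tested, with a median of 0.40. Its catalytic subunit gene Cybb stood at 3.50 and 23.4 CPM in the MAdCAM1 libraries and 19.9 and 10.8 CPM in the IgG libraries.

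Transcription factors of the granulocyte lineage gave 1 of 9 tested genes lower without overlap, Junb, and 2 higher, Klf6 and Gfi1, with a median log2 fold change of 0.12. Spi1, which encodes PU.1, stood at 9.66 and 28.0 CPM in the MAdCAM1 libraries and 11.7 and 22.3 CPM in the IgG libraries. Cebpb stood at 56.7 and 61.4 CPM in the MAdCAM1 libraries and 58.8 and 74.3 CPM in the IgG libraries. Cebpd, at 165 and 73.7 CPM in the MAdCAM1 libraries and 79.0 and 244 CPM in the IgG libraries, overlapped widely. Cebpe, whose product acts in specific granule formation, was not analysed here.

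The partners of the activation receptors did not separate the groups. Fcer1g, the adaptor through which Clec4d and Clec4e signal, stood at 28.0 and 93.6 CPM in the MAdCAM1 libraries and 31.0 and 81.6 CPM in the IgG libraries. Tyrobp, which encodes DAP12, the adaptor of Trem1, stood at 32.6 and 87.2 CPM in the MAdCAM1 libraries and 26.9 and 80.6 CPM in the IgG libraries. In both, MAdCAM1 2 and IgG 2 were high and the other libraries low. Of 9 tested C-type lectin pathway genes, 0 were lower without overlap and 1, the kinase gene Syk, was higher (log2 fold change 0.44), and the related receptors Clec4n, Clec7a and Clec4a3 as well as Card9, Bcl10, Malt1 and Plcg2 overlapped. All 4 tested genes of the Trem list, Pglyrp1, Tyrobp, Trem2 and Treml4, overlapped, and Hcst had 2 to 8 tags per library.

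Inflammatory genes of activated myeloid cells gave 1 of 16 tested genes lower without overlap and 3 higher, with a median log2 fold change of 0.06. The lower gene was Tnf, at 29.5 and 22.3 CPM in the MAdCAM1 libraries and 36.7 and 36.0 CPM in the IgG libraries (log2 fold change −0.49, edgeR quasi-likelihood adjusted p = 0.731). The higher genes were Il1rn, Nos2 and Cd14, at log2 fold changes of 0.46, 0.64 and 0.23. The cytokine gene Il1b overlapped between the groups, at a log2 fold change of −0.16.

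Signals that recruit or generate neutrophils held 4 of 10 tested genes lower without overlap and 1 higher, where all tested genes had 18.7% lower and 19.7% higher, with a median log2 fold change of −0.48. Csf3, which encodes G-CSF, the ligand of the Csf3r product, had 8 and 23 tags in the MAdCAM1 libraries and 102 and 37 tags in the IgG libraries (log2 fold change −1.97, SE 0.76, edgeR quasi-likelihood adjusted p = 0.731). Il17a, a cytokine that induces G-CSF and neutrophil chemokines, had 25 and 3 tags in the MAdCAM1 libraries and 60 and 75 tags in the IgG libraries (log2 fold change −2.05, SE 1.01, adjusted p = 0.760). Cxcl5, a chemokine for the neutrophil receptor CXCR2, stood at 117 and 111 CPM in the MAdCAM1 libraries and 183 and 185 CPM in the IgG libraries. Its log2 fold change of −0.69 (SE 0.14) was called by DESeq2 (adjusted p = 0.00673) but not by edgeR's quasi-likelihood test (adjusted p = 0.665). The adhesion gene Icam1 was the fourth, at −0.33. Cxcl1 and Cxcl2 overlapped, and the higher gene was Lta4h, at 0.22. Csf3 and Il17a, which did not overlap, were chosen after their values were seen.

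**Figure D4:**
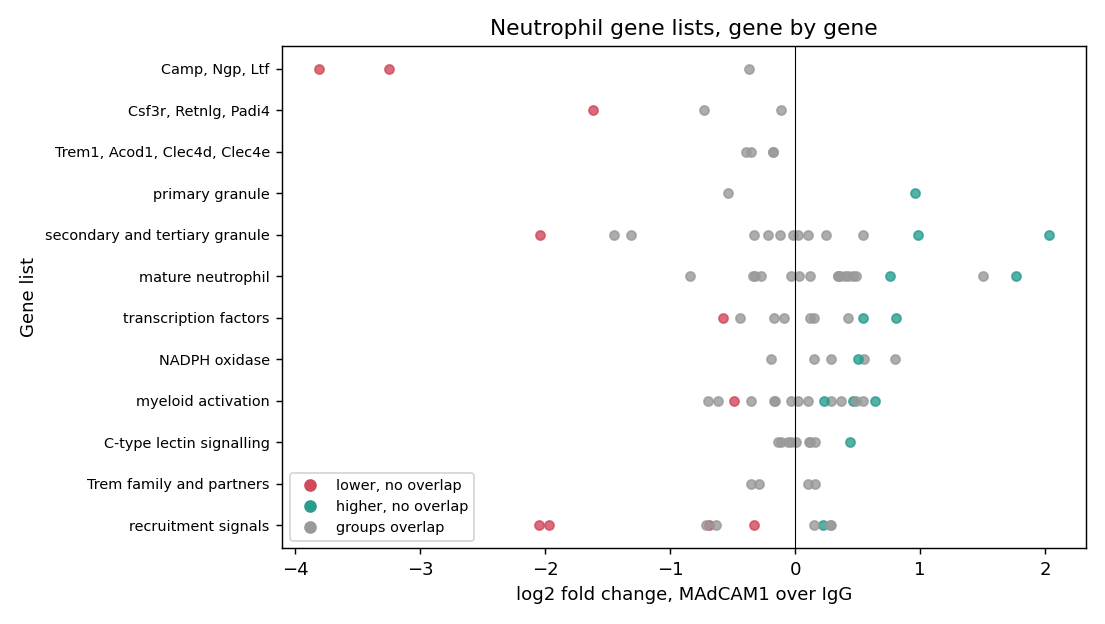
Log2 fold change (MAdCAM1 over IgG) of each tested gene in 12 neutrophil and myeloid lists, coloured by whether the 2 groups' libraries overlap. Camp and Ngp stand apart on the left at −3.81 and −3.25, and Mmp8, Csf3 and Il17a lie near −2.

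Markers of other cells were set beside the members. The pan-leukocyte list, 5 of 5 genes tested and all overlapping, summed to 86.8 and 366 CPM in the MAdCAM1 libraries and 116 and 194 CPM in the IgG libraries. Macrophage and monocyte markers, 8 of 13 in the table and all 7 tested ones overlapping, summed to 143 and 546 CPM in the MAdCAM1 libraries and 164 and 543 CPM in the IgG libraries, with C1qa, C1qb and C1qc not analysed here. Lyz2 stands in this list and in that of the secondary granules. MAdCAM1 1, lowest in both sums, had 1 tag of Camp and 2 tags of Ngp, the lowest counts of each. MAdCAM1 2, highest in both sums, had 3 and 19 tags of them. The part of leukocyte content in these levels was not tested. Epithelial markers had 7 of 8 genes higher in both MAdCAM1 libraries, as were 19.7% of all tested genes. They summed to 10851 and 9469 CPM there, against 6849 and 6094 CPM in the IgG libraries. Mast cell markers summed to 184 and 129 CPM in the MAdCAM1 libraries and 160 and 98.5 CPM in the IgG libraries, and none of the 5 eosinophil markers was analysed here. Of the dendritic cell markers Itgax alone was in the table, at 3.85 and 9.45 CPM in the MAdCAM1 libraries and 5.06 and 7.91 CPM in the IgG libraries. The part of the epithelial share in the levels of Camp and Ngp was not tested.

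**Figure D5:**
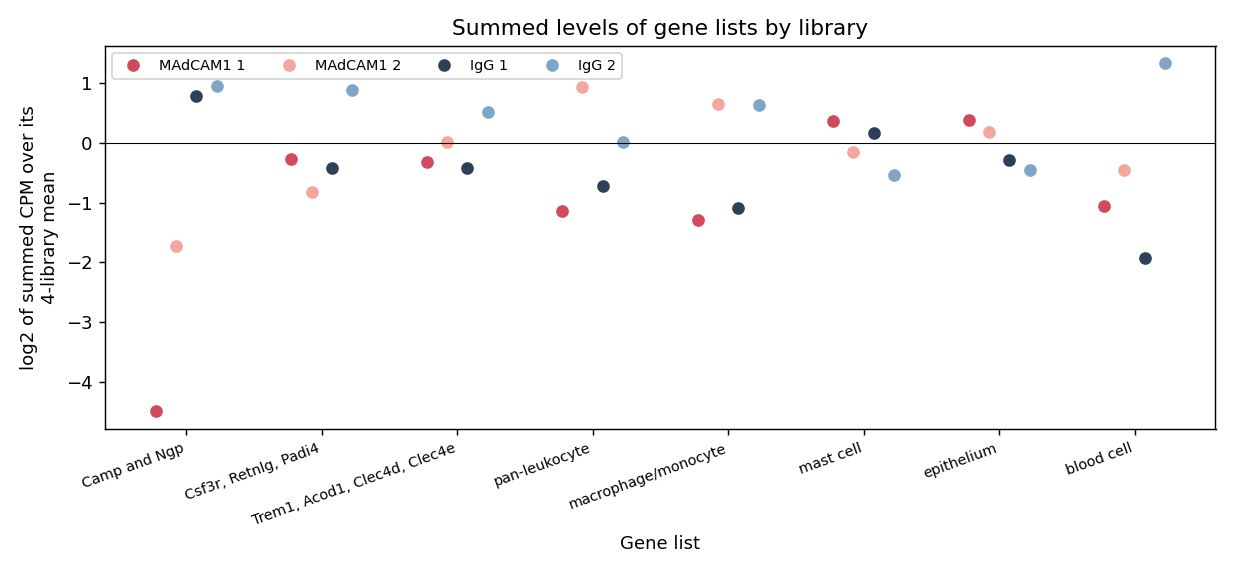
Log2 of the summed CPM of each gene list over its mean of the 4 libraries, by library. Camp and Ngp are low in both MAdCAM1 libraries, whereas the pan-leukocyte sum is highest in MAdCAM1 2 (366 CPM) and lowest in MAdCAM1 1 (86.8 CPM).

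The genes whose profile over the 4 libraries lay nearest to that of a member were taken by Euclidean distance between centred log2 CPM values, among 14330 other genes. Those nearest to Camp were Slc38a4 (distance 0.957), Cdkn2a, Ngfr, Tuba8 and, in the fifth place, Ngp (1.27). Those nearest to Ngp were Gm43305 (0.741), Cdkn2a, Camp (1.27), Zcchc3 and Ngfr. Csf3r had much closer neighbours in Pygl (0.0877), Clec5a, Ptgs1, Plek and Tagap (0.167), and Retnlg in Pfn2 (0.237), Fbxl21, Tesc, A2ml1 and Zap70 (0.431). Camp and Ngp stood among each other's nearest 5 genes, and the lists of Csf3r and Retnlg shared no gene. With 4 libraries these distances describe the profiles and carry no test.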

How the data were processed

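CAGE tags were counted in 4 colon tumour libraries, 2 per antibody group. Per the labels' protocols, reads were aligned by the authors to GRCm39 (BWA 0.7.17, then HISAT2 2.0.5), clustered with RECLU, and discarded clusters of low level, low reproducibility or great width before naming edgeR 3.22.5 for expression. Genes whose clusters were lost in these steps cannot be counted. The deposited values are raw tag counts per gene, and the step from clusters to genes is not given in the sources used here. No column was left out (0).

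All genes were fitted together in edgeR 4.0.16 under R 4.3.3 (filterByExpr by group, TMM, robust quasi-likelihood F test, Benjamini-Hochberg adjustment over 14331 genes, adjusted p threshold 0.05), with no block and MAdCAM1 over IgG. Standard errors come from the fitted coefficient and its F value. Log2 ratios within a library used a pseudocount of 0.5 tag on each sum, and distances between profiles a prior count of 2 and genes with at least 20 tags in all. Named genes were the 10 members, up to 5 genes per list with the highest mean CPM, all Padi, C-type lectin and Trem genes in the table, the nearest profiles, and genes chosen after their values were seen. These last were Slpi, Mmp8, Wfdc21, Itgam, Chil3, C5ar1, Spi1, Gfi1, Cd14, Tnf, Nos2, Il1b, Cxcl1, Csf3 and Il17a. The markers Mmp9 and Cxcr2 come from the neutrophil marker list. The members and lists were chosen with earlier results of these data known. Nothing in the labels gives batches or dates. Alternatives were other scalings (RLE, upper quartile, library size), no filter, a minimum of 1 CPM in 2 libraries, omission of each library in turn, the replicate number as a block, DESeq2 1.42.0, limma-voom (limma 3.58.1) and the exact test.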

Additional observations from a re-analysis of the deposited data

How the results depend on the processing

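No gene was called by edgeR's quasi-likelihood test under the other scalings, filters, left-out libraries or the replicate block (0 genes), whereas DESeq2 called 242 and the exact test 161. The replicate numbers belong to different mice, and deviations of same-numbered libraries correlated at −0.14 across genes. Blocking on the crossed numbers, chosen after seeing the data, also called 0. Members lower in both MAdCAM1 libraries numbered 3 under every scaling tried and 4 to 9 when a library was left out. They were 9 without IgG 1 (38.7% of all tested genes) and 5 without MAdCAM1 2 (32.5%). They were 4 without IgG 2 (34%) and 4 without MAdCAM1 1 (36%), near the share over all genes. Fewer libraries make separation easier. The difference in log2 ratio of granule to mature tags lay between −4.64 and −1.52 over the left-out libraries and was −2.12 with Ltf among the granule genes and −3.18 with all 7 mature and activation genes. Of 130 recomputed member fold changes 121 kept their sign, those of Camp (−4.68 to −3.30), Ngp (−5.50 to −2.43), Retnlg (−2.27 to −0.45) and Padi4 (−1.63 to −0.10) in every setting. The low counts in the MAdCAM1 libraries, 1 and 3 tags of Camp and 2 and 19 tags of Ngp, limit the precision of their fold changes.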
